A study of Rattus norvegicus with 20 samples.

Results

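The data described here are the islet arrays of 10 daughters, 5 sired by fathers on a high-fat diet (HFD) and 5 sired by fathers on a control diet, out of 20 arrays in the series, whose other 10 are of sons. They were chosen by their labelled sex and paternal diet. All daughters were Sprague Dawley rats, an outbred laboratory strain. Their fathers ate HFD or control diet for 12 weeks and were then mated with chow-fed females, litters were standardised to 12 pups, and the daughters themselves were weaned onto chow and killed unfasted at week 4 to 5. The measured material was total RNA of their isolated islets, with an Affymetrix Rat Gene 1.0 ST array for each daughter. The groups differ by label in the diet of the father. Array titles also carry sample numbers, which are higher in every control-sired daughter except the first than in any HFD-sired daughter. The number of the first control-sired daughter lies among those of the HFD-sired daughters. What these numbers stand for is not given, and their part in the differences below was not tested. The series compared the diets within each sex at an unadjusted threshold, and its title concerns inflammation in islets.

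Islets are small clusters of endocrine cells scattered through the pancreas: beta cells secrete insulin, alpha cells glucagon and delta cells somatostatin. A preparation of islets also holds blood vessels, resident macrophages and, as carry-over, acinar and duct cells of the exocrine pancreas, and lymph nodes and fat lie close to the gland. In bulk RNA such as this, fewer cells of a type and less RNA per cell cannot be told apart. Immediate early genes, to which several of the genes below belong, are transcribed within minutes of a signal without new protein synthesis, in islets after glucose or cyclic AMP and in many tissues after handling or cell stress.

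Each array held log2 values of 29214 probe sets, of which 15310 carried a single gene symbol and stood for 14506 genes. The arrays have no read depth or detection calls. Their medians lay between 6.32 and 6.38, so a value below that may be background. Litters came from 8 control and 9 HFD fathers, and which arrays share a father is not given. The p-values treat arrays as independent and measure the spread between these samples. Differences below are HFD-sired minus control-sired on the log2 scale, with standard errors (SE). The median SE was 0.11 over the 10 daughters, 0.10 over the 9 daughters without HFD-sired daughter 1, and 0.18 for the difference between daughters and sons.

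A single array stood apart before any comparison. HFD-sired daughter 1 correlated with the other daughters at a median Pearson r of 0.941 across probe sets, control-sired daughter 1 at 0.978, and the other 8 arrays at 0.988 to 0.991. The small intestine markers averaged 9.07 in HFD-sired daughter 1 and 5.59 to 6.34 in the other 9 daughters. Markers of white fat, or shared by white and brown fat, are called white fat markers below and do not single out white fat. They averaged 8.63 in HFD-sired daughter 1 and 7.31 in control-sired daughter 1, against 6.26 to 6.70 in the other 8 daughters. The beta cell genes averaged 9.03 in HFD-sired daughter 1, below the other HFD-sired daughters (10.34 to 10.44) and the controls (10.06 to 10.54). Every result is therefore given with all 10 daughters and again with 9.

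**Figure D1:**
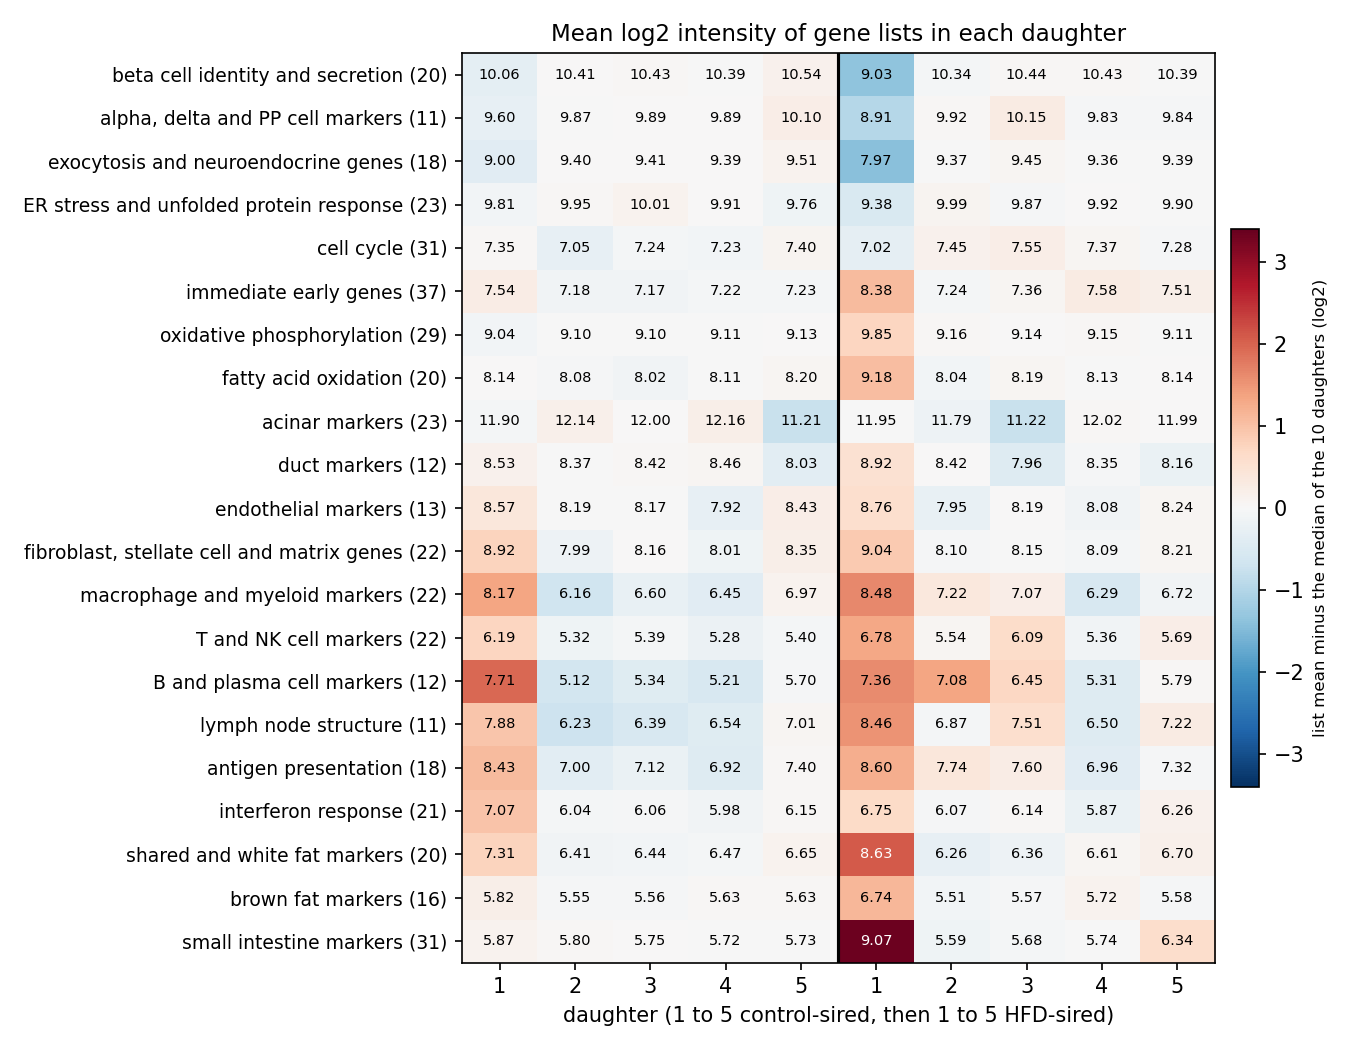
Mean log2 level of 21 gene lists in each of the 10 daughters, printed in the cells and coloured by the distance from the median of the 10 daughters. HFD-sired daughter 1 is high for small intestine (9.07) and shared and white fat markers (8.63) and low for beta cell genes (9.03). Control-sired daughter 1 is highest for B and plasma cell genes (7.71).

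The comparison asks whether a father's HFD is followed by other transcript levels in the islets of daughters. No gene passed the test in limma with Benjamini-Hochberg adjustment: 0% of 29214 probe sets had an adjusted p under 0.05 over 10 daughters (lowest adjusted p 0.995), and 0% over 9 (lowest adjusted p 0.999). Among single-symbol genes with an unadjusted p under 0.05 over 10 daughters, the largest differences were those of the immediate early genes Atf3 and Fos, which were higher in most HFD-sired daughters. Larger differences with wider errors, such as those of intestinal, lymphocyte, macrophage and Reg genes, missed that threshold. At the unadjusted threshold that the series used, 319 probe sets were higher (1.09%) and 478 lower (1.64%) over 10 daughters. Without HFD-sired daughter 1 the counts were 519 higher (1.78%) and 563 lower (1.93%). Both directions together gave 797 over 10 daughters and 1082 over 9. A threshold of 0.05 would on average call more among 29214 probe sets without any difference. With array quality weights the count was 1862 in either set, and without control-sired daughter 1 and HFD-sired daughter 1 it was 1699. Both are above that average, and no probe set passed adjustment there either. Among the 14506 genes, 85 (0.586%) were higher and 181 (1.25%) lower over 10 daughters, and 203 (1.4%) and 238 (1.64%) over 9. Over all genes 6250 differences were above 0 with 10 daughters (median -0.02) and 7326 with 9 (median 0.00), against which the gene lists below are to be read.

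Leaving out HFD-sired daughter 1 turned the median of several lists. White fat markers had a median difference of 0.26 over 10 daughters and -0.16 over 9. Beta cell genes went from -0.28 to 0.03 and exocytosis genes from -0.24 to 0.05. Lists whose median kept its sign and a size above 0.1 were the immediate early genes (0.33 and 0.12), B and plasma cell markers (0.45 and 0.25), T and NK cell markers (0.31 and 0.14), lymph node structure genes (0.49 and 0.27), blood markers (-0.12 and -0.12) and the Reg family (-0.42 and -0.37). Quantile normalisation turned none of these medians. The blood median was -0.04 without HFD-sired daughter 3 or without control-sired daughter 4, -0.05 without control-sired daughter 1, -0.06 without HFD-sired daughter 5, and -0.07 without HFD-sired daughter 4. The Reg median was -0.25 without HFD-sired daughter 3.

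**Figure D2:**
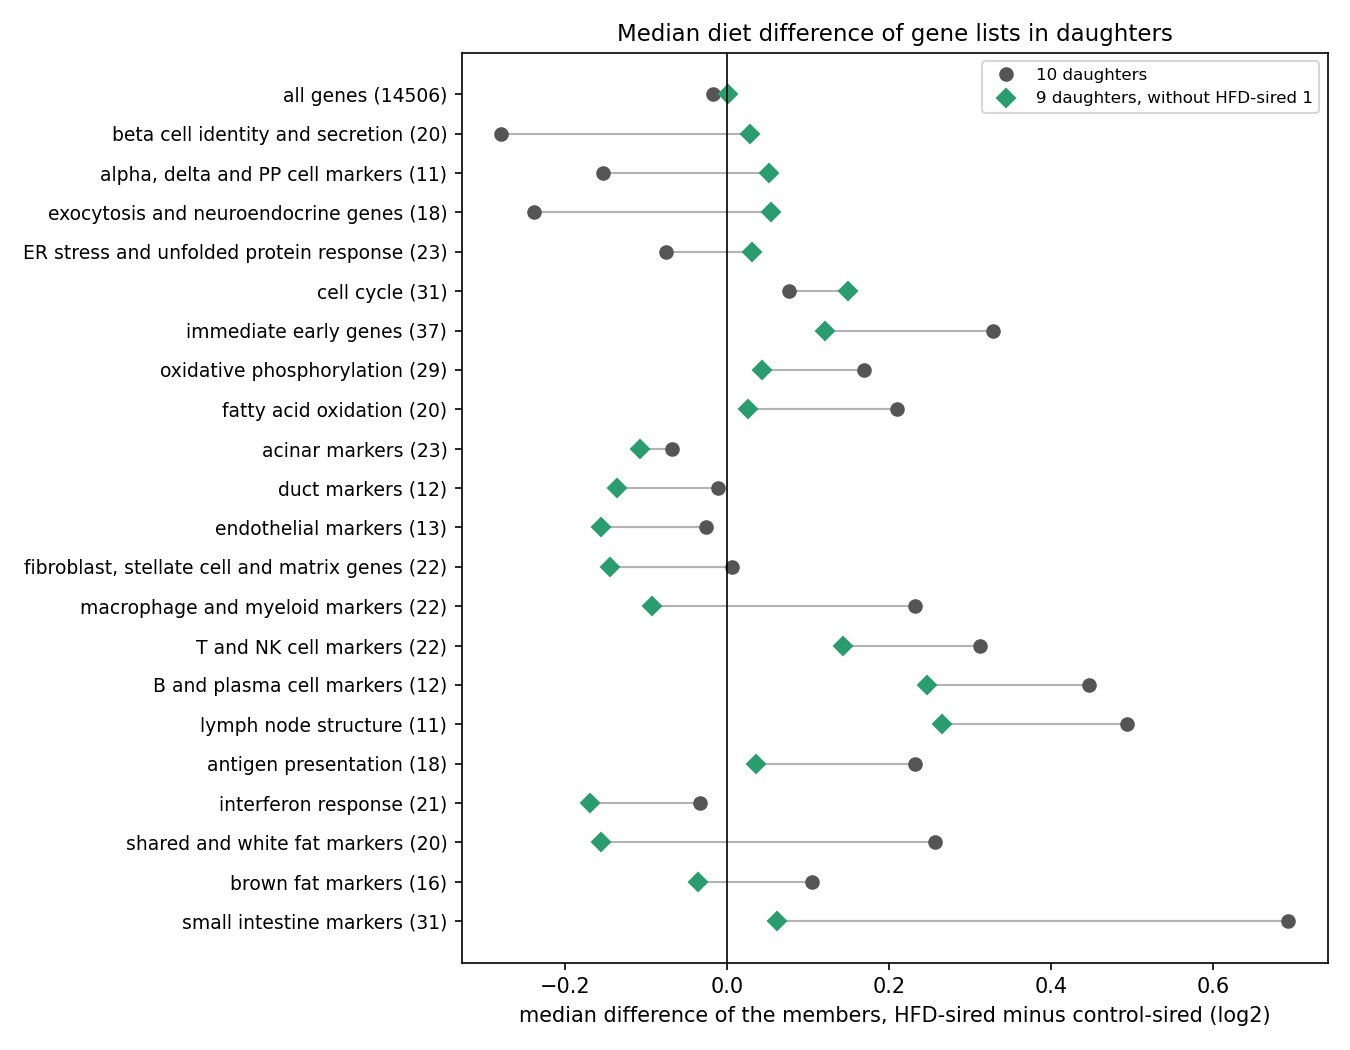
Median log2 difference (HFD-sired minus control-sired daughters) over the measured members of each gene list, as circles for 10 daughters and diamonds for 9 without HFD-sired daughter 1. The small intestine list moves from 0.69 to 0.06 and the shared and white fat list from 0.26 to -0.16. The immediate early genes stay above 0 (0.33 and 0.12).

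Immediate early genes were the list with the most members at the unadjusted threshold. Of 40 listed genes 37 were measured, and 34 of these had a difference above 0 over 10 daughters, 25 over 9. Over 10 daughters 7 members had an unadjusted p under 0.05, all higher (0.586% of all genes did so): Fos, Jun, Jund, Egr1, Atf3, Ppp1r15a and Gadd45g. Over 9 daughters the number was 6, the same members except Jund, against 1.4% of all genes. The list was chosen with earlier results of these data known, so setting it beside these shares is no test. HFD-sired daughter 1 held the highest value of 31 of the 37 members, and the 3 members below 0 over 10 daughters were Fosl1, Egr4 and Maff. The list averaged 7.54 in control-sired daughter 1 and 7.17 to 7.23 in the other controls, against 8.38, 7.24, 7.36, 7.58 and 7.51 in HFD-sired daughters 1 to 5. In sons 21 of 37 members were above 0, with a median of 0.03. HFD-sired daughter 4, next highest on this list, had macrophage markers at 6.29, small intestine markers at 5.74 and white fat markers at 6.61. Controls 2 to 5 ranged from 6.16 to 6.97, 5.72 to 5.80 and 6.41 to 6.65 on these lists, and control 1 read 8.17, 5.87 and 7.31. Brown fat markers averaged 5.72 in HFD-sired daughter 4, 5.82 in control 1 and 5.55 to 5.63 in controls 2 to 5. The part of other tissue in the immediate early values was not tested.

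Fos encodes a subunit of the AP-1 transcription factor. It read 8.79, 8.47, 7.76, 8.26 and 8.32 in control-sired daughters 1 to 5 and 10.53, 8.14, 9.21, 9.80 and 9.10 in HFD-sired daughters 1 to 5. All HFD-sired daughters except daughter 2 lay above every control, so the groups overlapped through 1 array. The difference was 1.03 ± 0.37 (SE) over 10 daughters, a 2.05-fold ratio, and 0.74 ± 0.30 over 9, a 1.67-fold ratio. Its partner Jun read 9.30, 8.90, 8.49, 8.54 and 8.45 in controls and 10.70, 8.83, 9.25, 9.61 and 9.19 in HFD-sired daughters, with only daughters 1 and 4 above every control. Its difference was 0.78 ± 0.31 over 10 daughters and 0.49 ± 0.20 over 9. Jund, another AP-1 member, differed by 0.42 ± 0.17 and 0.27 ± 0.12.

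Egr1, a zinc finger factor that glucose induces in beta cells, read 9.30, 9.03, 8.73, 9.24 and 8.97 in controls and 10.71, 8.93, 9.58, 10.17 and 9.90 in HFD-sired daughters. Again all but HFD-sired daughter 2 were above every control, and the difference was 0.80 ± 0.28 over 10 daughters and 0.59 ± 0.22 over 9. By the correlation of deviations from group means, Egr1 was the gene most like Fos over the 10 daughters (Pearson r 0.956), followed by Zfpm2 (0.946) and Ctu1 (0.944). Over 9 daughters Egr1 had rank 4 (0.918) behind Vom1r51 (0.950), Or12k5 and Rpusd1. These correlations describe 10 or 9 arrays whose depth of signal and tissue make-up the genes share.

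Atf3, a repressor induced by stress and cytokines, was lowest in controls 2 to 5 (6.81, 6.60, 6.56 and 6.60) and read 7.31 in control 1. HFD-sired daughters read 9.57, 7.25, 7.11, 7.97 and 7.52, all above those 4 controls and 3 of them above control 1 as well. The difference was 1.11 ± 0.41 over 10 daughters and 0.69 ± 0.20 over 9. Ppp1r15a (GADD34), which reverses the stress block on translation, read 7.57, 7.50, 7.36, 7.45 and 7.21 in controls and 8.90, 7.42, 7.84, 8.23 and 7.77 in HFD-sired daughters. Its difference was 0.61 ± 0.23 and 0.40 ± 0.14, with daughter 2 alone inside the control range. Gadd45g, a growth arrest gene, covered a narrow span, 7.21 to 7.40 in controls against 7.70, 7.31, 7.53, 7.65 and 7.57, and differed by 0.22 ± 0.08 and 0.18 ± 0.08.

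The phosphatase gene Dusp1, which switches MAP kinases off, did not reach the unadjusted threshold. It read 9.72, 9.18, 9.04, 9.02 and 9.24 in controls and 11.07, 9.22, 9.65, 9.94 and 9.50 in HFD-sired daughters, and differed by 0.64 ± 0.30 over 10 daughters and 0.34 ± 0.17 over 9. Only daughters 1 and 4 lay above every control. Gadd45a, a p53 target, was the single member whose groups did not touch: controls lay between 8.96 and 9.09 and HFD-sired daughters read 9.88, 9.13, 9.14, 9.10 and 9.13. Most of its difference of 0.24 ± 0.14 came from daughter 1, since it was 0.09 ± 0.06 over 9.

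**Figure D3:**
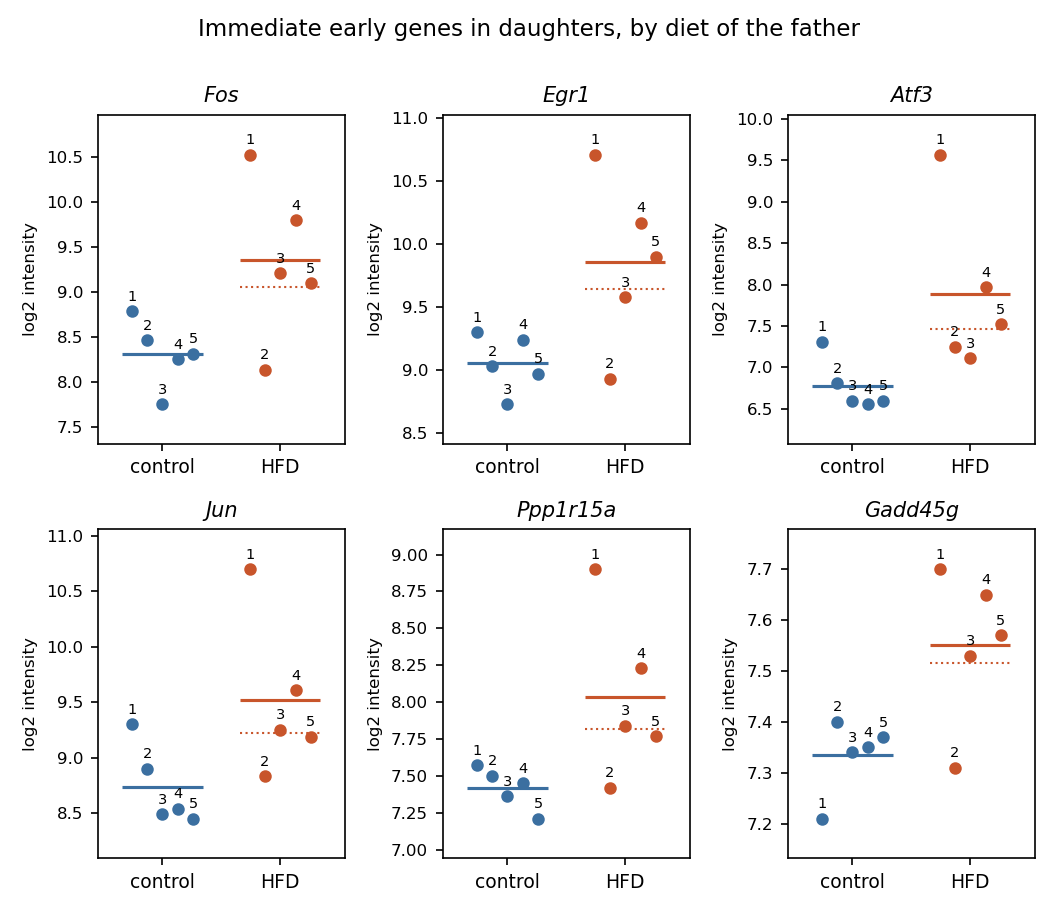
Log2 values of immediate early genes in the 5 control-sired and 5 HFD-sired daughters, each point numbered by daughter; solid lines are group means and the dotted line is the HFD mean without daughter 1. Daughter 1 is the highest point in each panel and daughter 2 lies within the control range for Fos (8.14) and Egr1 (8.93).

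Because cyclic AMP induces many genes of this class in islets, RefSeq promoters (assembly GRCr8) were searched for the palindromic cyclic AMP response element TGACGTCA, which reads alike on both strands. It occurred in 612 of 33469 promoter windows (1.83%), each 300 bases long, and in 6 of the 28 measured immediate early genes with an entry (21.4%): Ppp1r15a, Dusp1, Ier2, Plk2, Jund and Maff. Fos, Jun and Atf3 had no entry and were not searched. The first share counts windows, whether or not their gene was measured. The second counts genes with the element in any of their windows, so the shares are not the same measure. A match describes letters in a window and shows no binding. The 250 bases before the start site of 3 of them are printed because their values are given here, with the element in capitals. They lie at chr1:105139597-105139846 on the minus strand (Ppp1r15a), chr10:17184603-17184852 on the plus strand (Dusp1) and chr19:40399123-40399372 on the plus strand (Ier2).
Ppp1r15a: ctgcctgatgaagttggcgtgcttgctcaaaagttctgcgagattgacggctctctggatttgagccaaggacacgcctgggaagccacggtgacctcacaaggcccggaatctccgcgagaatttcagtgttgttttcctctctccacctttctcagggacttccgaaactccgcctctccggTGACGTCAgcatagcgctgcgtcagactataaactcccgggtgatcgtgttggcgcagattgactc
Dusp1: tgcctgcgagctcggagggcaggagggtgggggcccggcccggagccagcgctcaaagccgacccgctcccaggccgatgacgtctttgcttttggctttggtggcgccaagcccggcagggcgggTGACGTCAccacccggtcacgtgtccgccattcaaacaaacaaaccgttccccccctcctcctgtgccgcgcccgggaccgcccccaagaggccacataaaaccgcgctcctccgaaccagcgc
Ier2: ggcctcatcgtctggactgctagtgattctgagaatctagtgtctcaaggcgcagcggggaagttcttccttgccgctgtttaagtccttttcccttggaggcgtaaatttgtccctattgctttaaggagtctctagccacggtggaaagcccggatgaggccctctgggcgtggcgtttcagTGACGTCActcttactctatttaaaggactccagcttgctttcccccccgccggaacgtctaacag
The element begins 66 bases before the start site in Ppp1r15a and Ier2, and 124 bases before it in Dusp1. Ier2 itself, a short-lived nuclear protein gene, read 7.33, 6.68, 6.75, 7.06 and 6.93 in controls and 8.37, 6.83, 6.86, 7.44 and 6.98 in HFD-sired daughters, so that only daughters 1 and 4 were above every control. Maff carries the element as well and was among the members below 0.

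A stricter view asks which genes kept the groups apart altogether. Every HFD-sired daughter lay above every control for 55 probe sets (0.188%) and below every control for 78 (0.267%), of which 24 and 40 carried a single gene symbol. With HFD-sired daughter 1 left out, 202 probe sets (0.691%) were higher and 169 (0.578%) lower without overlap, 4 against 5. Each of these shares was below what a random order of the arrays would give on average. That did not hold when control-sired daughter 1 was left out instead. Then 583 probe sets, higher and lower together, did not overlap, which is above that average. The larger differences were in Klkb1 and Coq10b among the higher genes and in Atp11a and Or5k15 among the lower ones. Several of the lower genes read below the array medians and may be background.

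Klkb1 encodes plasma prekallikrein, a liver protease of the contact system. It read 4.57, 4.67, 4.32, 4.49 and 4.37 in controls and 5.44, 5.69, 4.72, 5.86 and 5.47 in HFD-sired daughters. All 10 values were below the array medians, daughter 3 stood only just above the highest control, and daughter 1 was not exceptional. The difference was 0.95 ± 0.18 over 10 daughters and 0.95 ± 0.20 over 9. Without HFD-sired daughter 3 it was 1.13 ± 0.11 with a limma adjusted p of 0.0525, the lowest adjusted p in that comparison. Daughter 3 was the HFD-sired array nearest to the controls, so leaving it out had to widen the difference. That p-value is therefore no support for a diet effect on Klkb1. Over all 10 daughters the lowest limma adjusted p of any probe set was 0.995. Sons of control fathers ranged from 4.33 to 5.70 and sons of HFD fathers from 4.39 to 5.88. The genes most like Klkb1 in their deviations over 10 daughters were the olfactory receptor genes Or9q2 (Pearson r 0.957) and Or9e1 (0.949).

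Coq10b, which helps mitochondria use coenzyme Q, read 7.12, 6.91, 6.99, 6.94 and 6.72 in controls and 7.49, 7.45, 7.13, 7.24 and 7.51 in HFD-sired daughters. Its groups stayed apart and its difference changed little without daughter 1, from 0.42 ± 0.10 to 0.39 ± 0.10. Slc25a25, a calcium-regulated mitochondrial carrier of ATP-Mg, read 7.06, 7.36, 7.26, 7.35 and 7.17 against 7.36, 7.44, 7.39, 7.66 and 7.54, and differed by 0.24 ± 0.08 and 0.27 ± 0.09. The gap between the groups was narrow, with control 2 and HFD-sired daughter 1 equal to 2 decimals. Ndufv2, a complex I subunit, read 8.58, 8.83, 8.84, 8.88 and 8.89 against 9.38, 9.02, 8.94, 9.04 and 8.94 and differed by 0.26 ± 0.10 and 0.18 ± 0.08. H3f3b, a gene for the replacement histone H3.3, ranged from 10.80 to 11.03 in controls against 11.56, 11.06, 11.14, 11.13 and 11.15, with differences of 0.29 ± 0.10 and 0.20 ± 0.06. Hspe1, the mitochondrial chaperonin partner HSP10, ranged from 8.99 to 9.17 in controls and read 9.42, 9.33, 9.41, 9.19 and 9.19 (0.21 ± 0.08 and 0.18 ± 0.07). Both Ndufv2 and H3f3b were highest in HFD-sired daughter 1, and the gap between the groups was narrow.

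Among the lower genes, Atp11a, a P4-ATPase that moves phospholipids to the inner membrane leaflet, had 2 probe sets. The brighter read 9.03, 8.61, 9.56, 9.17 and 9.21 in controls and 8.33, 8.57, 8.61, 8.58 and 8.74 in HFD-sired daughters, with 3 of the 5 below every control, and differed by -0.55 ± 0.15 over 10 daughters and -0.49 ± 0.16 over 9. The other probe set did not overlap between the groups. Banp, a chromatin protein that binds CpG-rich promoters, read 7.79, 7.91, 7.86, 7.72 and 7.94 against 7.14, 7.58, 7.54, 7.71 and 7.52 and differed by -0.35 ± 0.10 and -0.26 ± 0.07. Hoxd4, a homeobox gene, read 6.05, 6.10, 6.19, 6.08 and 6.06 against 5.82, 5.64, 5.90, 5.69 and 5.71, a difference of -0.34 ± 0.07 and -0.36 ± 0.07. Hoxd4 lay below the array medians in all daughters, and HFD-sired daughter 3 was the one nearest to the controls.

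Other named genes that were lower without overlap came from dim probe sets. Or5k15, an olfactory receptor gene, ranged from 3.84 to 4.41 in controls and read 3.46, 3.58, 3.70, 3.68 and 3.12 in HFD-sired daughters. Its difference of -0.52 ± 0.14 is therefore between values well under the array medians, and the same holds for Or8b42 (-0.49 ± 0.12), the serpin gene Serpinb3 (-0.44 ± 0.10), the GABA receptor subunit gene Gabrg1 (-0.44 ± 0.11) and the secretoglobin gene Scgb1b30 (-0.43 ± 0.08). On the higher side, Or6b3 ranged from 4.85 to 5.11 in controls and from 5.11 to 5.46 in HFD-sired daughters.

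**Figure D4:**
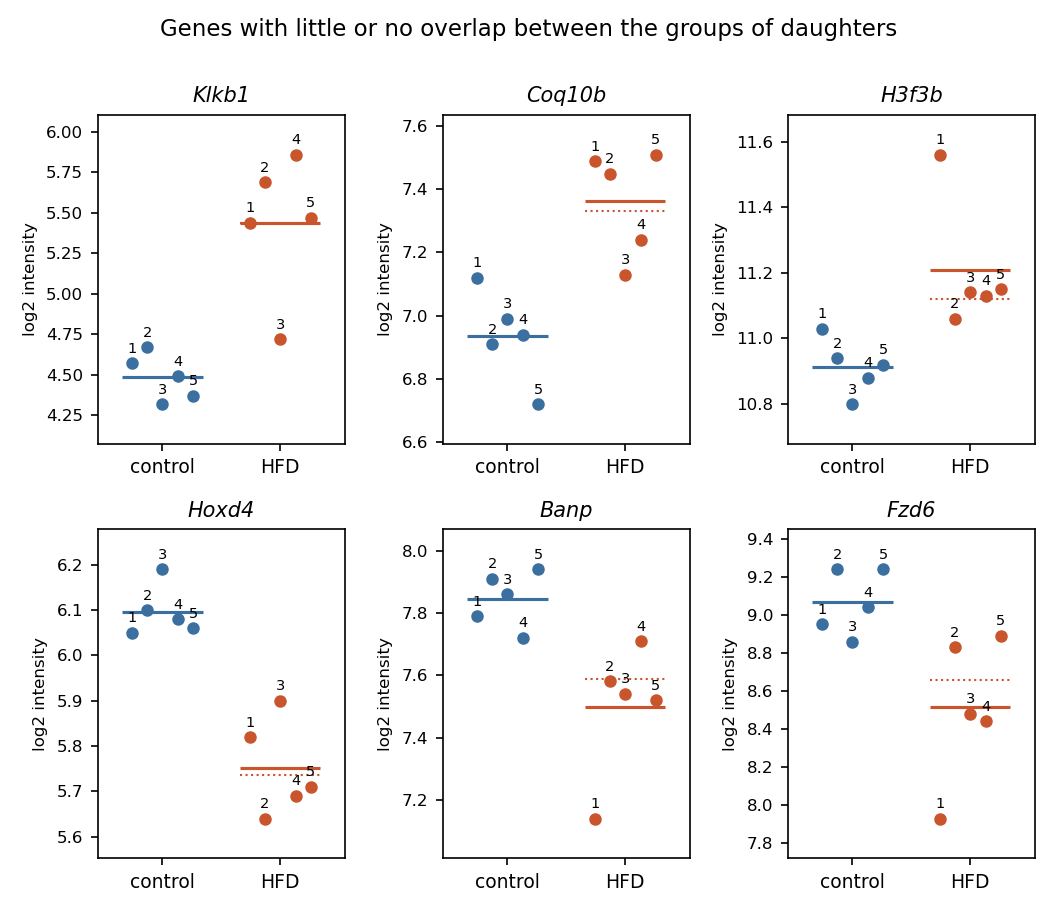
Log2 values of genes whose 5 HFD-sired and 5 control-sired daughters do not or hardly overlap; points are numbered by daughter, solid lines are group means and dotted lines the HFD mean without daughter 1. Klkb1 runs from 4.32 to 4.67 in controls and from 4.72 to 5.86 in HFD-sired daughters, and Banp lies at or above 7.72 in controls and at or below 7.71 in HFD-sired daughters.

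Some of the larger differences at the unadjusted threshold overlapped between groups. Fzd6, a Wnt receptor, read 8.95, 9.24, 8.86, 9.04 and 9.24 in controls and 7.93, 8.83, 8.48, 8.44 and 8.89 in HFD-sired daughters, with only daughter 5 inside the control range, and differed by -0.55 ± 0.17 and -0.41 ± 0.12. Slc26a8, an anion transporter gene best known from sperm, differed by -0.50 ± 0.16 and -0.42 ± 0.16. Ephx2, soluble epoxide hydrolase, read 6.52, 6.19, 6.51, 6.01 and 6.37 against 7.93, 6.51, 6.85, 6.61 and 6.65, so daughter 1 set much of the difference of 0.59 ± 0.25, which was 0.33 ± 0.12 without it. Trim14, an adaptor of antiviral signalling, differed by 0.51 ± 0.16 and 0.39 ± 0.14, and Tpmt, which methylates thiopurine drugs, by 0.53 ± 0.20 and 0.39 ± 0.18.

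A few genes were moved into view only by leaving out HFD-sired daughter 1. Anpep, an aminopeptidase of intestinal brush border, ducts and myeloid cells, read 11.05 in that array and 7.11, 6.98, 7.37 and 7.43 in the other HFD-sired daughters, against 8.11, 8.01, 7.72, 8.45 and 7.34 in controls. Its difference was 0.06 ± 0.68 over 10 daughters and -0.70 ± 0.20 over 9. Krt19, a duct and gut keratin, read 9.44 there and 6.73 to 7.06 in the other 4, against 7.53, 7.03, 7.05, 7.51 and 7.89 in controls, and went from -0.03 ± 0.47 to -0.55 ± 0.17. Inmt, a methyltransferase of stromal cells, went from -0.30 ± 0.23 to -0.53 ± 0.12, with 5.58 to 5.70 in HFD-sired daughters 2 to 5 and 5.88 to 6.41 in controls, which do not overlap. In the other direction Sqor, which oxidises sulphide in mitochondria, went from 0.22 ± 0.20 to 0.42 ± 0.12, and the mitotic gene Hmmr reached 0.43 ± 0.15. Gem, a small GTPase that restrains calcium channels, was little affected (0.43 ± 0.17 and 0.48 ± 0.18) and read 8.36 in HFD-sired daughter 5 against 7.16 to 7.38 in controls.

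Hormone genes were high in every daughter and the endocrine lists were lowest in HFD-sired daughter 1 and next lowest in control-sired daughter 1, at 9.03 and 10.06 for beta cell genes, 8.91 and 9.60 for alpha, delta and PP cell markers and 7.97 and 9.00 for exocytosis genes. Ins1 and Ins2, the rat's insulin genes, lay between 13.82 and 14.05 in every daughter, near the top of the scale (14.12), where arrays resolve little. Gcg, for glucagon, read 13.66, 13.92, 13.94, 13.86 and 13.92 in controls and 13.15, 13.91, 13.96, 13.92 and 13.84 in HFD-sired daughters, a difference of -0.10 ± 0.15 over 10 daughters and 0.05 ± 0.07 over 9. Iapp, the amyloid peptide co-secreted with insulin, read 12.08 in daughter 1, and its difference went from -0.12 ± 0.22 to 0.12 ± 0.07. Sst, for somatostatin, read 11.40, 11.80, 11.57, 11.95 and 11.85 against 9.88, 12.09, 12.08, 11.68 and 11.36, with differences of -0.30 ± 0.37 and 0.09 ± 0.17. The glucose transporter gene Slc2a2 differed by -0.13 ± 0.18 and 0.05 ± 0.10.

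By list, 1 of 20 beta cell genes was above 0 over 10 daughters and 13 over 9, and 18 of 20 had their lowest value in HFD-sired daughter 1. The fatty acid receptor gene Ffar1, one of them, read 8.36 in that array, 10.23 to 10.62 in the other HFD-sired daughters and 10.15 to 10.73 in controls. Exocytosis and neuroendocrine genes behaved alike, with 0 of 18 above 0 over 10 daughters and 17 over 9. Control 1, low on this list (9.00), stays in the latter set. Controls 2 to 5 averaged 9.39 to 9.51 and HFD-sired daughters 2 to 5 averaged 9.36 to 9.45. Snap25, a SNARE protein of secretory granules, read 9.57, 9.99, 10.19, 9.98 and 10.14 in controls and 8.02, 10.16, 9.98, 9.99 and 9.98 in HFD-sired daughters. For alpha, delta and PP cell markers 1 of 11 was above 0 over 10 daughters (median -0.15) and 8 over 9 (median 0.05). In none of these 3 lists did a member reach the unadjusted threshold in either comparison (0.586% and 1.25% of all genes, higher and lower, over 10 daughters).

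Exocrine transcripts were abundant in all daughters and varied within both groups. The 23 acinar markers averaged 11.90 to 12.16 in controls 1 to 4 and 11.21 in control 5, and 11.79 to 12.02 in HFD-sired daughters 1, 2, 4 and 5 and 11.22 in daughter 3. A single low array in each group therefore set the spread, and the median difference of -0.07 became -0.24 without control 5 and 0.06 without HFD-sired daughter 3. The elastase gene Cela1 read 11.68 in control 5 and 11.79 in HFD-sired daughter 3, against 12.73 to 13.16 elsewhere.

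The Reg genes, lectins that acinar cells release in pancreatic stress, varied more between arrays than the acinar list. Of 5 measured, 3 were below 0 in both sets of daughters (Reg3a, Reg3b and Reg1a). In sons 0 of the 5 were above 0, with a median of -1.41. Reg3a read 12.10, 11.89, 11.23, 12.24 and 10.05 in controls and 8.61, 8.45, 6.01, 12.00 and 11.45 in HFD-sired daughters. Daughters 1, 2 and 3 were below every control and daughters 4 and 5 within the control range, so the difference of -2.20 ± 1.00 over 10 daughters (-2.03 ± 1.08 over 9) missed the unadjusted threshold. Reg3b read 12.77, 12.59, 11.25, 12.43 and 10.34 in controls and 10.64, 8.07, 6.01, 12.65 and 12.08 in HFD-sired daughters (-1.99 ± 1.15 and -2.17 ± 1.24). Reg1a was high in all arrays, at 13.04 to 13.51 in controls and 12.75, 12.96, 12.27, 13.43 and 13.27 in HFD-sired daughters, with the same 3 daughters lowest (-0.42 ± 0.20 and -0.37 ± 0.21). In those 3 daughters the acinar markers averaged 11.95, 11.79 and 11.22, the last being the lowest of the HFD-sired group, and in control 5, lowest in Reg3a among controls, 11.21. The part of acinar carry-over in the Reg values was not tested. Reg3g varied otherwise, at 8.48, 6.56, 6.18, 5.48 and 5.05 in controls against 8.33, 8.13, 4.88, 5.28 and 8.88. Duct markers had a median difference of -0.01 over 10 daughters and -0.14 over 9, with 5 of 12 above 0 over 9.

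Lymphocyte transcripts were uneven within both groups. B and plasma cell markers averaged 7.71 in control 1 and 5.12, 5.34, 5.21 and 5.70 in controls 2 to 5, against 7.36, 7.08, 6.45, 5.31 and 5.79 in HFD-sired daughters. Of 12 markers 12 were above 0 over 10 daughters and 11 over 9, control 1 held the highest value of 10 of them, and the list's median difference of 0.45 was 0.90 without control 1. Ms4a1, the B cell antigen CD20, read 8.46 in control 1 and 4.07 to 5.02 in the other controls, and 7.78, 7.63, 6.43, 4.82 and 5.58 in HFD-sired daughters. Cr2, the complement receptor of B cells and follicular dendritic cells, read 9.39 in control 1 and 3.74 to 5.32 in the other controls, and 8.61, 9.40, 7.13, 3.92 and 6.43 in HFD-sired daughters. High and low arrays thus occurred on both diets, and no B cell marker reached the unadjusted threshold. Of all genes 0.586% were higher at that threshold over 10 daughters and 1.4% over 9.

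T and NK cell markers had 22 of 22 members above 0 over 10 daughters (median 0.31) and 19 over 9 (median 0.14), with the highest value of 20 of them in HFD-sired daughter 1. The T cell receptor subunit gene Cd3e read 6.06, 5.01, 5.02, 4.92 and 4.87 in controls and 6.93, 5.46, 5.90, 4.92 and 5.61 in HFD-sired daughters, a difference of 0.59 ± 0.35 over 10 daughters and 0.30 ± 0.26 over 9. Over 9 daughters 1 of the 22 members was higher at the unadjusted threshold (1.4% of all genes were), the regulatory T cell factor gene Foxp3 (0.16 ± 0.07), and over 10 daughters 0 were (0.586%). Genes of lymph node structure, such as the homing chemokines, averaged 7.88 in control 1 and 6.23 to 7.01 in the other controls, and 8.46, 6.87, 7.51, 6.50 and 7.22 in HFD-sired daughters, with a median difference of 0.49 and 0.27. Cxcl13, the B cell attracting chemokine of lymphoid follicles, ranged from 5.68 to 11.63 in controls and from 7.15 to 10.90 in HFD-sired daughters. The part of lymph node tissue in the lymphocyte values was not tested.

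Macrophage markers turned with the left-out array. Of 22 measured, 18 were above 0 over 10 daughters (median 0.23) and 5 over 9 (median -0.09), and the median was 0.51 without control 1. Cd68, a macrophage lysosomal protein, read 7.37, 5.65, 5.86, 5.91 and 6.42 in controls and 7.66, 6.61, 6.45, 5.86 and 5.98 in HFD-sired daughters (0.27 ± 0.39 and -0.02 ± 0.32). The highest value of every one of the 22 was in control 1 (7 genes) or HFD-sired daughter 1 (15 genes). Antigen presentation genes had 17 of 18 above 0 over 10 daughters (median 0.23) and 10 over 9 (median 0.04).

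Of the cytokine genes, which the series' title makes of interest, the best known varied as much within a diet as between diets. Il1b, the classical islet cytokine, read 7.11, 5.63, 5.87, 5.84 and 6.19 in controls and 7.20, 5.98, 6.40, 5.78 and 5.94 in HFD-sired daughters, with 1 high array on each diet (0.13 ± 0.32 and -0.10 ± 0.27). Tnf differed by 0.12 ± 0.20 and 0.00 ± 0.18. The monocyte chemokine Ccl2 read 9.09, 6.80, 7.28, 7.45 and 8.69 in controls and 9.38, 6.71, 8.01, 7.31 and 8.14 in HFD-sired daughters, overlapping throughout (0.05 ± 0.54 and -0.32 ± 0.48). The decoy receptor gene Il13ra2 read 5.82, 3.34, 3.45, 3.29 and 5.32 against 7.64, 3.69, 5.63, 3.97 and 4.22, and its difference was 0.78 ± 0.79 over 10 daughters and 0.13 ± 0.60 over 9.

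As lists, interleukins, TNF family members and their receptors had 19 of 31 above 0 over 10 daughters (median 0.04) and 8 over 9 (median -0.08). At the unadjusted threshold 1 member was lower over 10 daughters (1.25% of all genes were) and 2 over 9 (1.64%), Il12b in both and Csf2, the growth factor GM-CSF, over 9 alone (-0.19 ± 0.08). Il12b is an interleukin subunit made by myeloid cells and did not overlap between groups, at 6.11, 5.82, 5.79, 5.98 and 5.77 in controls and 5.72, 5.71, 5.63, 5.73 and 5.58 in HFD-sired daughters (-0.22 ± 0.08 over 10 daughters), all below the array medians. Chemokines and receptors had 17 of 26 above 0 (median 0.09) and 7 over 9 (median -0.11). Cxcl11, an interferon-induced chemokine, was lower over both sets, at 6.58, 6.46, 6.70, 6.69 and 6.66 in controls and 6.44, 6.01, 6.09, 6.52 and 6.45 in HFD-sired daughters (-0.32 ± 0.11 and -0.35 ± 0.11). Interferon response genes had 9 of 21 above 0 over 10 daughters (median -0.03) and 2 over 9 (median -0.17), and averaged 7.07 in control 1 against 5.98 to 6.15 in the other controls. Without control 1 their median was 0.14. NF-kB genes (0.05 and -0.03), JAK-STAT genes (-0.07 and -0.04) and neutrophil and mast cell markers (-0.01 and -0.09) had no member at the unadjusted threshold in either set.

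Stromal and fat lists had most members below 0 once HFD-sired daughter 1 was left out. White fat markers had 18 of 20 above 0 over 10 daughters and 0 over 9. Control 1, which stays in the latter set, averaged 7.31 on this list. Controls 2 to 5 averaged 6.41 to 6.65 and HFD-sired daughters 2 to 5 averaged 6.26 to 6.70. Adipoq, the adipocyte hormone adiponectin, read 7.88 in HFD-sired daughter 1 and 6.68 in control 1, against 5.13 to 5.64 in the other 8 daughters. Fibroblast and matrix genes had 12 of 22 above 0 over 10 daughters (median 0.01) and 1 over 9 (median -0.14), and endothelial markers 5 and 1 of 13 (medians -0.03 and -0.16). Control 1 was again high, with fibroblast genes at 8.92 against 7.99 to 8.35 in the other controls, and without it the fibroblast median over the remaining 9 arrays was 0.19. Endothelial markers averaged 8.57 in control 1, 7.92 to 8.43 in controls 2 to 5 and 7.95 to 8.24 in HFD-sired daughters 2 to 5. Brown fat markers went from a median of 0.10 to -0.04, and Ucp1, the uncoupling protein of brown fat, read 10.18 in HFD-sired daughter 1, 8.12 in control 1, 6.35 in HFD-sired daughter 4 and 4.60 to 4.91 elsewhere.

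Intestinal transcripts were high in another array too. Of 31 small intestine markers 27 were highest in HFD-sired daughter 1, and the list averaged 6.34 in HFD-sired daughter 5 against 5.59 to 5.87 in the remaining 8 daughters. Fabp2, the intestinal fatty acid binding protein, read 11.63 in HFD-sired daughter 1, 7.22 in HFD-sired daughter 5 and 3.36 to 3.84 in the others. The apolipoprotein gene Apoa1 read 12.58 and 9.27 in those arrays and 5.88 to 6.41 elsewhere. Blood markers were below 0 for 10 of 11 genes over 10 daughters and for all 11 over 9, with medians of -0.12 in both. Their largest member over 9 was Hba-a3, an alpha globin gene, at 8.51, 7.76, 8.39, 8.76 and 8.09 in controls and 7.39, 7.85, 7.85 and 7.80 in HFD-sired daughters 2 to 5 (-0.58 ± 0.19), with daughter 1 at 8.74. Schwann cell (0.04 and -0.03), liver (-0.02 and -0.05) and skeletal muscle markers (-0.02 and -0.03) had medians near that of all genes.

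Cell cycle genes, which serve the growth of young islets, had most members above 0 in both sets of daughters. Of 31 measured, 25 were above 0 over 10 daughters (median 0.08) and 29 over 9 (median 0.15). At the unadjusted threshold, all higher, there were 2 over 10 daughters (Pcna and Cdk2) and 5 over 9 (Pcna, Mcm6, Cdc20, Plk1 and Rrm2), against 0.586% and 1.4% of all genes. Pcna, the sliding clamp of DNA replication, read 8.48, 8.19, 8.06, 8.18 and 8.33 in controls and 8.98, 8.56, 8.83, 8.69 and 8.37 in HFD-sired daughters. Only daughter 5 lay within the control range, and the difference was 0.44 ± 0.12 over 10 daughters and 0.37 ± 0.11 over 9. HFD-sired daughter 3 held the highest value of 16 of the 31 genes and control 2 the lowest of 13. The list median over 10 daughters was 0.02 without the former and 0.01 without the latter.

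Rrm2, a ribonucleotide reductase subunit, read 7.91, 7.18, 7.71, 7.61 and 7.90 in controls and 7.29, 8.04, 8.14, 7.97 and 7.95 in HFD-sired daughters, so that daughters 2 to 5 were all above the controls by small steps (0.36 ± 0.14 over 9). The mitotic kinase gene Plk1 differed by 0.29 ± 0.11, the anaphase activator gene Cdc20 by 0.27 ± 0.11 and the helicase gene Mcm6 by 0.24 ± 0.10 over 9 daughters. Cdk2, the kinase of the entry into S phase, ranged from 6.77 to 7.01 in controls and read 7.48, 7.09, 7.10, 6.97 and 7.10 in HFD-sired daughters (0.23 ± 0.10 and 0.15 ± 0.07). The list thus leaned on low values in control 2 and high values in HFD-sired daughter 3.

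Metabolic lists were mostly carried by HFD-sired daughter 1. All 29 oxidative phosphorylation genes were above 0 over 10 daughters (median 0.17) and 25 over 9 (median 0.04), and all 29 were highest in that array, which averaged 9.85 against 9.04 to 9.16 in the others. Fatty acid oxidation went from 19 of 20 above 0 (median 0.21) to 11 (median 0.03) and glycolysis from 14 of 20 (median 0.08) to 10 (median 0.00). In glycolysis, Pgk1, phosphoglycerate kinase, did not overlap between the groups at 8.86 to 8.99 in controls and 10.01, 9.19, 9.01, 9.07 and 8.99 in HFD-sired daughters (0.15 ± 0.07 over 9), although control 5 and HFD-sired daughter 5 were equal to 2 decimals. Sterol and fatty acid synthesis genes were above 0 for 11 of 17 over 10 daughters (median 0.06) and 13 over 9 (median 0.05). Idi1, an isomerase of the sterol pathway, read 7.65, 7.76, 7.82, 7.76 and 7.59 in controls and 7.65, 8.38, 8.06, 7.85 and 7.90 in HFD-sired daughters (0.25 ± 0.12 and 0.33 ± 0.11), and Sc5d, a later enzyme, differed by 0.16 ± 0.07 and 0.19 ± 0.07. These 2 of 17 were the members at the unadjusted threshold over 9 daughters, where 1.4% of all genes were higher, and 0 were over 10.

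Stress lists gave small medians. ER stress and unfolded protein response genes went from -0.08 with 5 of 23 above 0 to 0.03 with 18. Heat shock genes (0.02 and 0.01), oxidative stress genes (0.04 and 0.02) and p53 targets (0.02 and -0.04) were close to the median of all genes. Hspe1 was the single member of the 3 lists at the unadjusted threshold in either set. Of all genes 0.586% were higher at that threshold over 10 daughters and 1.4% over 9.

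Clock genes split the HFD-sired daughters, a pattern noticed after their values were seen. Bmal1 and Npas2 belong to the activating limb of the circadian clock, and Dbp, Per3, Tef and Nr1d1 are driven by it in the opposite phase. Bmal1 read 7.89, 7.96, 8.03, 7.93 and 7.99 in controls and 6.54, 8.17, 8.10, 8.00 and 6.67 in HFD-sired daughters. Dbp read 8.22, 8.38, 8.11, 8.39 and 8.48 in controls and 10.18, 7.91, 8.46, 8.35 and 9.92 in HFD-sired daughters. HFD-sired daughters 1 and 5 were thus low in Bmal1 and high in Dbp, while the other 8 daughters lay close together.

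The same arrays stood out in other clock genes. Per3 read 8.17 and 8.23 in HFD-sired daughters 1 and 5 and 6.78 to 7.37 in the other 8 daughters, and Tef 7.95 and 7.80 against 6.88 to 7.35. Npas2 was lowest there, at 7.29 and 7.11 against 7.55 to 8.01. Nr1d1, for the repressor REV-ERB alpha, read 9.07 and 8.26 there, and 7.95 in HFD-sired daughter 4, against 6.75 to 7.74 in the others. Per1, which cyclic AMP and glucocorticoids also induce, read 7.23, 6.74, 6.89, 7.07 and 6.35 in controls and 7.94, 6.81, 7.05, 7.28 and 7.87 in HFD-sired daughters. It was the single list member at the unadjusted threshold over 10 daughters, where 0.586% of all genes were higher. Its difference was 0.53 ± 0.24 over 10 daughters and 0.40 ± 0.22 over 9. HFD-sired daughters 1 and 5 also had the highest small intestine markers (9.07 and 6.34), and what the clock values owe to that or to the hour of death was not tested. The list of 20 had 12 members above 0 in both sets, with medians of 0.06 and 0.10.

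**Figure D5:**
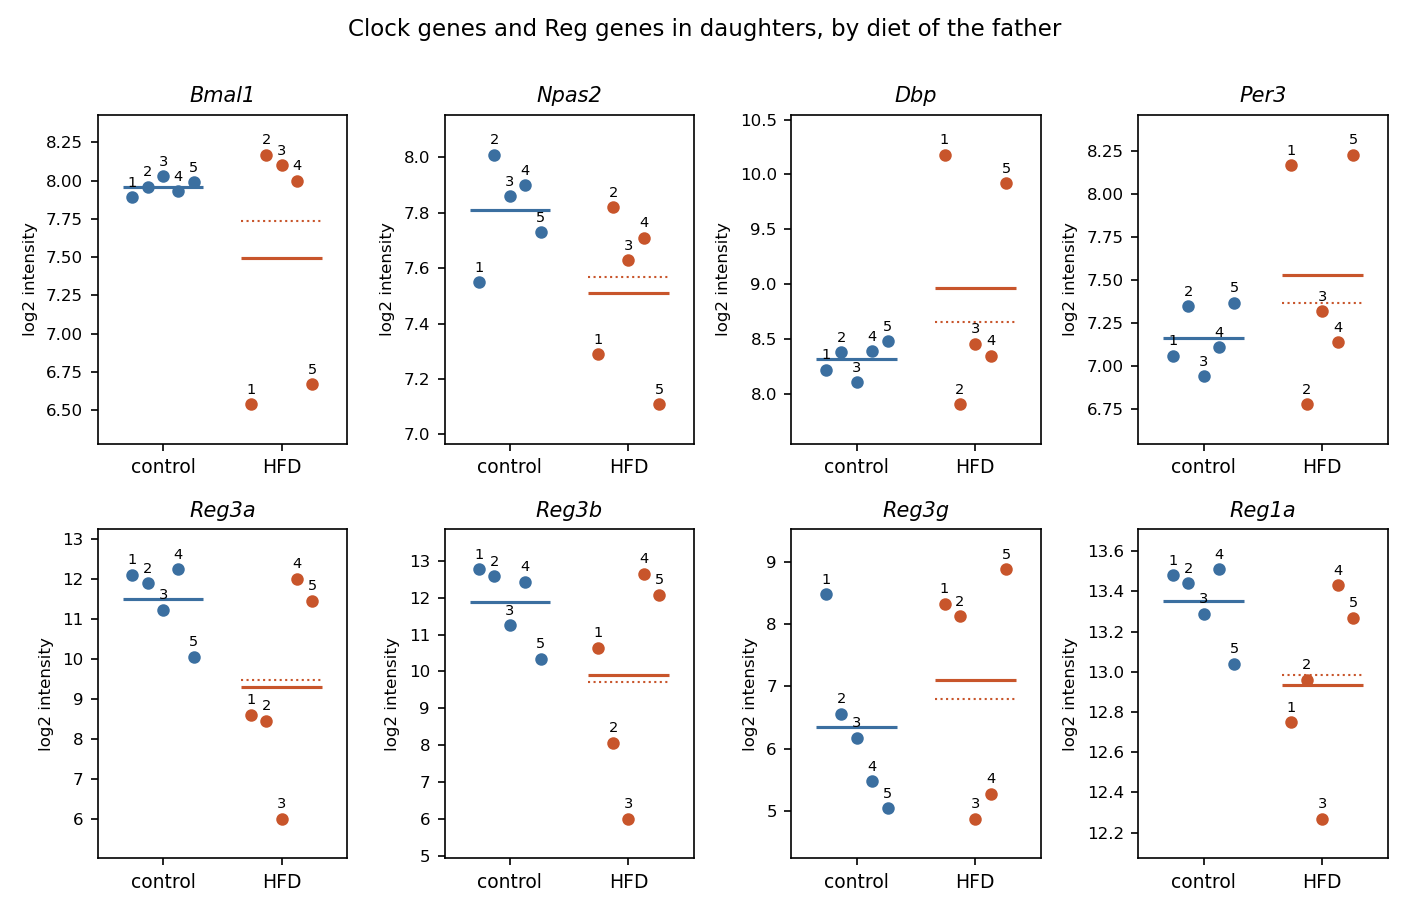
Log2 values of clock genes and Reg genes in the daughters, numbered, with group means as solid lines and the HFD mean without daughter 1 dotted. HFD-sired daughters 1 and 5 lie low in Bmal1 (6.54 and 6.67) and high in Dbp (10.18 and 9.92), and HFD-sired daughters 1 to 3 lie low in Reg3a (8.61, 8.45 and 6.01).

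Plasma protein, complement and coagulation genes, the class of Klkb1, had 12 of 36 above 0 over 10 daughters (median -0.06) and 14 over 9 (median -0.04). A1bg, a plasma glycoprotein of the immunoglobulin fold, read 6.67, 7.49, 7.38, 5.83 and 5.62 in controls and 5.10, 5.93, 5.70, 5.77 and 5.72 in HFD-sired daughters. Controls 1 to 3 were high and controls 4 and 5 lay among the HFD-sired daughters (-0.96 ± 0.36 and -0.82 ± 0.36). Itln1, an intelectin that binds microbial sugars, read 6.52, 7.16, 6.48, 7.12 and 6.60 against 5.77, 6.41, 6.40, 5.42 and 6.74, and differed by -0.63 ± 0.25 and -0.53 ± 0.25. Igfbp1, a binding protein of insulin-like growth factors, ranged from 6.82 to 7.75 in controls and read 6.23, 7.04, 7.04, 7.07 and 7.09 in HFD-sired daughters (-0.47 ± 0.21 and -0.30 ± 0.16). Of 8 measured lipid flippase genes, the class of Atp11a, 3 were above 0 in both sets (medians -0.03 and -0.04), and of 20 Wnt genes, the class of Fzd6, 9 and 7 (medians -0.01 and -0.04). The Wnt co-receptor gene Lrp5 was the other Wnt member at the unadjusted threshold over 9 daughters (-0.23 ± 0.08), where 1.64% of all genes were lower. Over all 14506 genes 8256 differences were below 0 over 10 daughters and 7180 over 9. Flippase genes below 0, Atp11a included, were 5 of 8 in both sets, and Wnt genes, Fzd6 included, 11 and 13 of 20. With list medians close to that of all genes, no likeness of these classes to Atp11a or Fzd6 is read from the counts. Plasma protein genes were below 0 for 24 and 22 of 36, unlike Klkb1.

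Whether the diet difference in daughters departed from that in sons was tested as an interaction over all 20 arrays. No probe set passed in limma after adjustment (0% of 29214, lowest adjusted p 0.922). At the unadjusted threshold 441 probe sets were higher in daughters relative to sons (1.51%) and 509 lower (1.74%). Among single-symbol genes at that threshold, the largest negative interaction was that of Thy1, a surface glycoprotein of lymphocytes, neurons and fibroblasts, and the largest positive one that of Kmo, an enzyme of tryptophan breakdown.

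Thy1 read 8.23, 7.28, 7.73, 8.54 and 7.69 in control-sired and 7.59, 7.93, 7.23, 7.66 and 7.35 in HFD-sired daughters, whereas sons ranged from 7.14 to 7.76 under control and from 7.70 to 8.33 under HFD. In sons the difference was 0.51 ± 0.15, and daughters minus sons was -0.85 ± 0.28, almost the same without HFD-sired daughter 1 (-0.86). Sorbs2, a cytoskeletal adaptor gene, read 8.44, 8.15, 8.01, 8.10 and 8.19 against 7.43, 8.13, 7.86, 8.05 and 7.64 in daughters and differed by 0.38 ± 0.18 in sons, an interaction of -0.73 ± 0.24 (-0.63 without the array). Fzd6 and Atp11a, lower in daughters, had interactions of -0.73 ± 0.28 and -0.72 ± 0.28, and Coq10b of 0.47 ± 0.20. These kept their direction and most of their size without HFD-sired daughter 1.

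Kmo read 5.56, 4.42, 4.85, 4.63 and 4.85 in control-sired and 7.18, 6.32, 5.56, 4.55 and 5.04 in HFD-sired daughters, with only daughters 1 and 2 clearly above the controls. Its interaction was 1.30 ± 0.57, and 0.93 without HFD-sired daughter 1. The other large positive interactions leaned on that array too: Trpv6, an epithelial calcium channel, went from 1.07 ± 0.51 to 0.57, the growth factor gene Bmp2 from 0.92 ± 0.38 to 0.60, and the Arf regulator gene Acap1 from 1.20 ± 0.52 to 0.94. On the negative side Slitrk6 went from -0.84 ± 0.35 to -0.51 and Gpx3, a secreted glutathione peroxidase, from -0.80 ± 0.32 to -0.60. Of the 37 immediate early genes 1 had an unadjusted p under 0.05 in the interaction, Gadd45g (0.34 ± 0.15). Among all 14506 genes 409 did, a share close to that of this list. For Fos (0.40 ± 0.87) and Egr1 (0.32 ± 0.74) the interaction was smaller than its error and its sign changed with array quality weights, and a difference between daughters and sons was not detectable. For Klkb1 it was 0.77 ± 0.41.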

How the data were processed

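Islet RNA of 10 daughters was measured on Affymetrix Rat Gene 1.0 ST arrays, and the table holds 1 column per array. Its values are log2 expression as deposited. Per the labels and the series' design text the authors normalised them by the robust multi-array average, while the submitters' processing notes name MAS5, a conflict not resolved here. The arrays nearly shared a distribution, with sorted values at most 0.33 apart. Of 29214 probe sets 323 had several symbols and 13581 were unnamed, and 15279 of the 15310 with 1 symbol matched RefSeq by gene number. Where a gene had several probe sets, the brightest on average stood for it.

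The values were tested as deposited with limma 3.58.1 (lmFit, eBayes) in R 4.3.3, two-sided, with Benjamini-Hochberg adjustment over all probe sets and thresholds of 0.05, over 10 daughters, over 9 without HFD-sired daughter 1, and as an interaction with the sons. The fits were checked on simulated data. Sex and paternal diet in the labels gave the groups, and replicate numbers follow accession order.

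The members and lists were chosen with earlier results of these data known. The 42 lists hold 883 genes, of which 763 were measured, and are described by counts and medians without tests. Pdx1, Mafa, Xist and Ddx3y were not used here. Named genes are the 12 largest differences in each direction of both daughter comparisons at the unadjusted threshold, the 10 largest non-overlapping in each direction, the 6 largest interactions in each direction, the 4 largest of each list and a fixed set of hormone, cytokine and immediate early genes. Of these the text gives a part, and genes shown as examples of lists (Fabp2, Apoa1, Adipoq, Ucp1, Cela1, Snap25, Ffar1, Cxcl13, Csf2, Foxp3 and the clock genes) were picked after their values were seen. Alternatives were quantile normalisation, a filter on level, array weights, the mean over a gene's probe sets, the spread shared with sons and leaving out each array. Their number limits the precision.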

Additional observations from a re-analysis of the deposited data

Results flagged for a closer look

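These values stood apart from the other 4 arrays of their own group, by a gap large relative to the group's range. Chance gives such a gap in about 1 in 20 groups, and each gene and list was looked at in both groups. No explanation was tested.

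Among list means, HFD-sired daughter 1 was low for beta cell genes (9.03), alpha, delta and PP cell markers (8.91), exocytosis genes (7.97) and ER stress genes (9.38). It was high for fibroblast genes (9.04), interleukins and the TNF family (6.92), chemokines (7.31), NF-kB genes (7.76), p53 targets (7.69), oxidative phosphorylation (9.85), fatty acid oxidation (9.18), glycolysis (9.31), blood (6.60), small intestine (9.07), brown fat (6.74) and white fat markers (8.63). HFD-sired daughter 3 was low for acinar markers (11.22).

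Control-sired daughter 1 was low for exocytosis genes (9.00). It was high for T and NK cell markers (6.19), B and plasma cell markers (7.71), NF-kB genes (7.55), interferon response genes (7.07), immediate early genes (7.54), p53 targets (7.50), Wnt genes (7.17) and white fat markers (7.31). Control-sired daughter 5 was low for acinar markers (11.21).

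Among single genes, HFD-sired daughter 1 was high for H3f3b (11.56), Ndufv2 (9.38), Gadd45a (9.88), Ephx2 (7.93), Cdk2 (7.48), Anpep (11.05), Krt19 (9.44), Inmt (6.82), Ctsc (10.13), Enpp1 (8.35), Pgk1 (10.01), Trpv6 (8.41) and Bmp2 (6.47). It was low for A1bg (5.10), Igfbp1 (6.23), Gcg (13.15), Iapp (12.08), Rrm2 (7.29), Slitrk6 (6.48) and Gpx3 (8.47). HFD-sired daughter 2 was low for Ins2 (13.93). Control-sired daughter 1 was low for Ndufv2 (8.58), Gcg (13.66), Slc2a2 (11.58) and Csf2 (4.01) and high for Cd3e (6.06) and Acap1 (7.74). Control-sired daughter 3 was high for Or5k15 (4.41), and control-sired daughter 4 for Gpx3 (10.47).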

How the results depend on the processing

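No adjusted count changed from 0 under any alternative run. Probe sets with unadjusted p under 0.05 over 10 daughters numbered 797, and became 243 with the filter on probe sets above the median level, 1862 with array quality weights, 1306 without control-sired daughter 1 and 1699 without that array and HFD-sired daughter 1, with a range of 643 to 1699 when arrays were left out. Over 9 daughters they numbered 1082, and became 482 with the spread shared with sons, 528 with the filter, 1862 with array quality weights and 1699 without control-sired daughter 1, the range then being 879 to 1699. For the interaction 950 became 511 with the filter. Non-overlapping probe sets numbered 133, became 53 with the filter, and between 248 and 583 when 1 array was left out, 583 without control-sired daughter 1 and 371 without HFD-sired daughter 1, where fewer arrays also make separation easier.

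Several small differences over 10 daughters changed sign when arrays were left out. The lowest and highest values were -0.102 and 0.380 for Il1b, -0.0043 and 0.242 for Tnf, -0.320 and 0.356 for Ccl2, and -0.0151 and 0.554 for Cd68, each pair without HFD-sired daughter 1 and without control-sired daughter 1. They were -0.0296 and 0.0066 for Ins2, -0.150 and 0.0511 for Gcg, -0.463 and 0.0883 for Sst, -0.185 and 0.122 for Iapp and -0.228 and 0.0472 for Slc2a2. With the exception of Ins2 (HFD-sired daughter 2), the higher value of each of these was the one without HFD-sired daughter 1. With array quality weights Iapp was 0.0808 and Slc2a2 0.0015. The interaction of Fos ranged from -0.0890 (without HFD-sired daughter 1 and the first control-sired son) to 0.797 when arrays were left out and was -0.335 with array quality weights, and that of Egr1 ranged from -0.0409 to 0.725 and was -0.274. The cause was not tested. No paired analysis was possible because the replicate numbers come from accession order and pair no arrays across groups. Values below the array medians and near the top of the scale limit what differences can be seen.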

Other observations

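Receptors and targets of sex hormones, a list of 11 measured genes, had 2 members above 0 over 10 daughters (median -0.06) and 5 over 9 (median 0.00). The estrogen receptor gene Esr1 read 6.04 to 6.41 in control-sired and 6.00 to 6.33 in HFD-sired daughters. Glucocorticoid target genes gave values on both sides as well. Fkbp5, a chaperone gene that glucocorticoids induce, read 8.74, 8.52, 8.04, 7.99 and 8.46 in control-sired and 7.70, 9.08, 8.17, 8.16 and 8.49 in HFD-sired daughters, and Tsc22d3 read 7.69 to 8.15 and 7.62 to 8.14.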
